A study of Mus musculus with 8 samples.

Results

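The genes described here are 10 interferon zeta (limitin-like) genes of the type I interferon cluster on mouse chromosome 4, among the 27179 genes of the count table. They are *Ifnz*, *Gm13271*, *Gm13272*, *Gm13275*, *Gm13276*, *Gm13277*, *Gm13279*, *Gm13283*, *Gm13285* and *Gm13287*. They were chosen by symbol, on a list drawn up with their count levels in these 4 groups known, so their levels and differences are given as a description, with no test. All 10 were present by Entrez identifier, and all 10 passed the filter on low counts. RNA of early LPre-B and sPre-B cells, sorted from mouse bone marrow, had been sequenced after removal of ribosomal RNA, with 2 libraries in each of 4 groups. The cKO/*Igh* B1-8hi mice carried both floxed alleles of *Upf1*, 1 *Mb1* Cre allele and 1 *Igh* B1-8hi allele, and the Ctrl/*Igh* B1-8hi mice had the same floxed and *Igh* alleles with wild-type *Mb1*. The rearranged heavy chain knock-in was therefore shared by all 4 groups, and Cre was driven from *Mb1* (*Cd79a*), which is active in the B lineage. The cKO and Ctrl mice differed in the *Mb1* Cre allele too, so its part and that of *Upf1* loss cannot be told apart. The study's methods give mice of both sexes at an age of 8 to 16 weeks and describe the data points as independent biological replicates.

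Interferon zeta, first described as limitin, is a secreted type I interferon of the mouse that was found through its suppression of the growth of B-lineage progenitors. It acts through the type I interferon receptor, made of IFNAR1 and IFNAR2, which signals through the kinases JAK1 and TYK2 to STAT2 and IRF9 and so to interferon-stimulated genes. TYK2 and the nuclear protein DAXX have been tied to its effect on the growth of pre-B cells. UPF1, the protein lost in the cKO mice, is an RNA helicase of nonsense-mediated mRNA decay. Early LPre-B cells are large, cycling progenitors, and sPre-B cells are the small, resting cells that follow them.

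The libraries held between 68516857 and 160426338 counts, so that 3 counts, taken as the smallest level that could be shown, stood for 0.0217 to 0.0425 CPM. This limit covers counting error only. CPM is the count per 1000000 of the library total after scaling with edgeR's TMM method. The floxed exons 4 to 6 are a small stretch of *Upf1*, and its gene count, which was higher in the cKO libraries (244 to 293 CPM) than in the Ctrl libraries (186 to 237 CPM), does not check the deletion. The replicate 2 Ctrl libraries of both stages had 304 and 151 counts of *Xist* against 290740 or more in the other 6, and 19733 and 28205 counts of 4 Y-linked genes against 34 or fewer. The replicate 2 cKO libraries of both stages stood apart in another way, with a summed level of 24 interferon-stimulated genes of 323 and 458 CPM against 165 to 242 CPM in the other 6. All 10 B-lineage markers were found in every group, with a summed level of 3300 to 3560 CPM in Ctrl and 2140 to 2210 CPM in cKO early LPre-B cells, and of 9180 to 9350 CPM in Ctrl and 5710 to 6030 CPM in cKO sPre-B cells. The summed level of early LPre-B markers was 5240 to 5490 CPM in Ctrl and 3370 to 3560 CPM in cKO early LPre-B cells. It was 419 to 790 CPM in Ctrl and 729 to 833 CPM in cKO sPre-B cells. The summed level of sPre-B markers was 530 to 540 CPM in Ctrl and 104 to 156 CPM in cKO early LPre-B cells. It was 3750 to 4320 CPM in Ctrl and 2260 to 2420 CPM in cKO sPre-B cells. The genotypes thus differed in stage markers as well, and the part of this in the interferon zeta differences was not tested.

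The 10 genes stand in tandem on the plus strand of chromosome 4 (GRCm38), each a single exon, together with 5 further limitin-like genes of the table that are outside the list (*Gm13278*, *Gm13286*, *Gm13288*, *Gm13289* and *Gm13290*). The cluster runs from 88754868, the start of *Gm13271*, to 88808380, the end of *Gm13288*. *Ifnz* itself lies at 88782131 to 88783592. The GENCODE M21 annotation gives 14 of the 15 genes an open coding sequence of 549 bases, and *Gm13286* none. The 14 coding sequences align without gaps and differ at 17 positions only. *Gm13277* and *Gm13279* have the same coding sequence, which they share with 4 of the genes outside the list, and the 10 genes have 9 distinct coding sequences. The least alike of the 45 pairs differ at 11 positions, an identity of 98.0%. Positions are counted from 1 at the A of the start codon, and each substitution names the base of *Gm13277* first. *Ifnz* carries G432T and C460T, and *Gm13271*, the most divergent gene, differs from *Gm13277* at 9 positions.

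The following sequences are coding bases 201 to 280, where 5 of the 17 variable positions fall, and are shown because they set out how little separates the genes for which reads were counted. They read 5′ to 3′ on the plus strand of GRCm38, with capitals for bases that differ from *Gm13277*. *Ifnz* and *Gm13279* share the line of *Gm13277*, and *Gm13272*, *Gm13285* and *Gm13287* share the line of *Gm13275*.
Gm13277 (chr4:88788832-88788911): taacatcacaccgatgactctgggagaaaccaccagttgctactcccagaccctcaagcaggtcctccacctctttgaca
Gm13275 (chr4:88794687-88794766): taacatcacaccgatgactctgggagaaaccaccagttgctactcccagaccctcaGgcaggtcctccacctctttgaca
Gm13276 (chr4:88785909-88785988): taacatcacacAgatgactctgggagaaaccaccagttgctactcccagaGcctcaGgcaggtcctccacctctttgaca
Gm13283 (chr4:88760974-88761053): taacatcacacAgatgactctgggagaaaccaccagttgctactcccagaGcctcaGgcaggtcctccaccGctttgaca
Gm13271 (chr4:88755068-88755147): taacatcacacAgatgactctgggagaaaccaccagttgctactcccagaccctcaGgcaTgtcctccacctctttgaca

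The bases that set *Ifnz* apart lie further on. Coding bases 421 to 480 hold both of its substitutions, and the 8 genes other than *Ifnz* and *Gm13271* are the same there as *Gm13277*. Capitals again mark differences from *Gm13277*.
Gm13277 (chr4:88789052-88789111): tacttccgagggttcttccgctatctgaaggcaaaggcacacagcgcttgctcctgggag
Ifnz (chr4:88783206-88783265): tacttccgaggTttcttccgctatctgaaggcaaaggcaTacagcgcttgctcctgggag
Gm13271 (chr4:88755288-88755347): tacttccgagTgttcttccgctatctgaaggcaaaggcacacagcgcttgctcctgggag

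How far a read within the coding sequence can be given to 1 gene follows from these differences. Of the 10 gene models, 3 have 549 bases and the others 811 to 1556. Their bases outside the coding sequence were not compared. Of the 450 windows of 100 coding bases in each gene, 360 were found in none of the other 13 coding sequences for *Gm13271*, 200 for *Gm13283*, 118 for *Ifnz*, 96 for *Gm13276*, 40 for *Gm13272*, 34 for *Gm13287* and 16 for *Gm13275*. No such window was found for *Gm13277*, *Gm13279* or *Gm13285*. The sources used here do not say how reads that match several genes were counted. The value of a single gene is therefore uncertain, and the summed count of the 10 genes is the safer measure. The reads were aligned as unstranded, and the methods give no strand setting for the counting. GENCODE M21 places exons of other genes on the opposite strand over the whole of *Gm13271* and over parts of *Gm13276* (68.1% of its length), *Gm13279* (52.6%), *Gm13283* (48.8%) and *Gm13275* (41.8%). If the counting did not use strand, reads of such a pair cannot be told apart. No opposite-strand exon covers *Ifnz*, *Gm13272*, *Gm13277*, *Gm13285* or *Gm13287*.

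The 250 bases before the annotated start of *Ifnz* (RefSeq, GRCm38.p6) were the same, base for base, before *Gm13276* and *Gm13277*, and differed at 1 base before *Gm13278* and *Gm13288*, genes outside the list. They are shown because these genes, whose starts all lie 655 bases before the start codon, have the same sequence there. The annotated starts of the other genes stand elsewhere, 5 of the 10 at the start codon itself, and their windows are not comparable. Capitals mark the matches to CANNTG, the motif of helix-loop-helix factors, on either strand.
Ifnz upstream (chr4:88781881-88782130): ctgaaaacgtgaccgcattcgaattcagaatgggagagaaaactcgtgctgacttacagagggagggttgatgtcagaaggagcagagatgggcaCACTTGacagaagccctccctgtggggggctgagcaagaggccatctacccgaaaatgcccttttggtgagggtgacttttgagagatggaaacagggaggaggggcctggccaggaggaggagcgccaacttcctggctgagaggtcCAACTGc
The 2 matches begin 155 and 7 bases before the start, and 66.2% of 32851 such windows of the genome's promoters hold at least 1. Letters of interferon-response elements were searched on both strands as GAAA or GGAA followed, after 2 bases of any kind, by GAAA. Neither was found in any of the 15 windows of the cluster, against 2.98% and 2.3% of all windows. TCCC followed after 2 bases by GGGA, letters of the motif of EBF1, was not found either (0.779% of all windows), nor was TATAAA (12.4%). These are matches of letters in these windows and no more.

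The summed level of the 10 genes was highest in cKO early LPre-B cells and lowest in Ctrl sPre-B cells. In early LPre-B cells the sum was 1249 and 716 counts in the Ctrl libraries and 2711 and 3388 counts in the cKO libraries. These were levels of 9.03 and 9.18 CPM in Ctrl and of 24.9 and 26.1 CPM in cKO cells. The pairs of libraries lay close together and the genotypes did not overlap. In sPre-B cells the sum was 105 and 74 counts in the Ctrl libraries and 915 and 768 counts in the cKO libraries. These were levels of 1.24 and 1.05 CPM in Ctrl and of 9.92 and 6.14 CPM in cKO cells. The cKO libraries of this stage differed most from each other, and both stood above the Ctrl libraries. In these bulk samples, fewer cells that express the genes and less of their RNA per cell cannot be told apart.

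**Figure D1:**
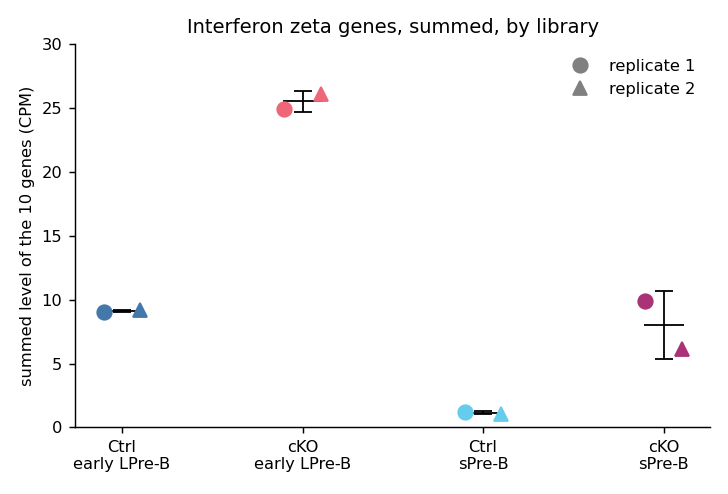
Summed level of the 10 interferon zeta genes in each library (vertical axis, CPM), by group; circles are replicate 1 and triangles replicate 2, and the bars give the mean ± SD of the 2 libraries. The cKO libraries stand above the Ctrl libraries of their stage, and the cKO sPre-B libraries (9.92 and 6.14 CPM) lie on both sides of the Ctrl early LPre-B libraries (9.03 and 9.18 CPM).

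The Log2FC of the summed count, cKO against Ctrl, was 1.49 ± 0.21 (SE) in early LPre-B cells, a level 2.8-fold higher, and 2.80 ± 0.23 in sPre-B cells, a level 6.98-fold higher. For sPre-B against early LPre-B cells the Log2FC was −2.99 ± 0.24 in Ctrl cells, a level 7.92-fold lower, and −1.67 ± 0.21 in cKO cells, a level 3.18-fold lower. The cKO difference in sPre-B cells exceeded that in early LPre-B cells by 1.32 ± 0.31 on the Log2FC scale. The order of the groups was thus cKO early LPre-B, then Ctrl early LPre-B and cKO sPre-B, which overlapped, then Ctrl sPre-B. Over all 17700 genes tested, the median Log2FC was −0.06 and 0.01 for the cKO differences and 0.02 and 0.05 for the stage differences. Scaling by library totals alone moved that median to 0.11, 0.07, 0.22 and 0.13, and the sum with it. Relative to the median of all genes, the sum stood at 1.55, 2.79, −3.01 and −1.72 in the 4 comparisons, and at 1.55, 2.79, −3.01 and −1.71 under that scaling. Without both replicate 2 Ctrl libraries, which stood apart in *Xist* and Y-linked counts, the Log2FC of the sum was 1.55 ± 0.29, 2.65 ± 0.33, −2.79 ± 0.35 and −1.69 ± 0.23 in the 4 comparisons.

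Taken singly, all 10 genes had both cKO libraries above both Ctrl libraries in early LPre-B cells, which 29.9% of all genes tested also had (36.4% had the reverse). All 10 had the same in sPre-B cells, as had 36.5% of all genes tested (34.3% the reverse). In both genotypes all 10 were lower in sPre-B cells with no overlap, as were 40.3% of all genes tested in Ctrl and 40.3% in cKO cells (40.5% and 42.8% were higher). These directions came with the choice of the genes, and no more is read from the counts. The median Log2FC of the 10 genes was 1.53 (1.05 to 1.95) for the cKO difference in early LPre-B cells and 3.01 (2.31 to 3.79) in sPre-B cells. For the stage difference it was −3.06 (−3.88 to −2.57) in Ctrl and −1.63 (−1.95 to −0.98) in cKO cells.

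*Ifnz*, the gene that gives the family its name, had levels of 0.969 and 0.513 CPM in Ctrl and of 2.91 and 2.91 CPM in cKO early LPre-B cells. In sPre-B cells its levels were 0.0709 and 0.17 CPM in Ctrl and 1.27 and 0.759 CPM in cKO cells. Its cKO libraries agreed closely in early LPre-B cells, and its Ctrl libraries did not at either stage. The Log2FC of *Ifnz* was 1.95 ± 0.42 in early LPre-B cells, the largest of the 10, and 3.09 ± 0.51 in sPre-B cells. Its share of the summed count was 5.59% to 16.2% over the 8 libraries, and between 11.4% and 12.6% on average in the cKO groups.

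*Gm13275* had the most counts of the 10 (1840 of 9926 over all libraries). Its levels were 1.93 and 1.97 CPM in Ctrl and 4.81 and 4.62 CPM in cKO early LPre-B cells, and 0.248 and 0.241 CPM in Ctrl and 1.51 and 0.943 CPM in cKO sPre-B cells. Its Log2FC values of 1.27 ± 0.25 and 2.31 ± 0.30 were below the median of the family at both stages. *Gm13276* followed with 1.55 and 1.69 CPM in Ctrl and 4.23 and 4.03 CPM in cKO early LPre-B cells, and 0.307 and 0.156 CPM in Ctrl and 1.57 and 1.1 CPM in cKO sPre-B cells. *Gm13277* had 1.31 and 1.33 CPM in Ctrl and 3.61 and 4.26 CPM in cKO early LPre-B cells, and 0.189 and 0.255 CPM in Ctrl and 1.47 and 0.911 CPM in cKO sPre-B cells. These 3 genes, the most abundant in reads, had the smallest cKO differences of the 10 in sPre-B cells. Without *Gm13275* the summed Log2FC was 1.54 ± 0.22 in early LPre-B and 2.91 ± 0.24 in sPre-B cells.

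*Gm13279*, identical to *Gm13277* in its coding sequence, had 0.861 and 0.846 CPM in Ctrl and 2.34 and 2.61 CPM in cKO early LPre-B cells, and 0.0946 and 0.0142 CPM in Ctrl and 1.09 and 0.528 CPM in cKO sPre-B cells. Its Log2FC in sPre-B cells, 3.79 ± 0.62, was the largest of the 10. *Gm13283* had 0.745 and 0.718 CPM in Ctrl and 1.96 and 2.12 CPM in cKO early LPre-B cells, and 0.118 and 0.0142 CPM in Ctrl and 0.976 and 0.368 CPM in cKO sPre-B cells. Both had a single count in the replicate 2 Ctrl library of sPre-B cells, below the limit of 3 counts, and 8 and 10 counts in replicate 1. In that replicate 2 library 4 of the 10 genes had 3 counts or fewer, and in replicate 1 there was 1, so their single fold changes rest on few reads.

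The remaining genes had low counts in the same order of groups. *Gm13272* had 0.55 and 0.538 CPM in Ctrl and 1.49 and 1.65 CPM in cKO early LPre-B cells, and 0.0591 and 0.0425 CPM in Ctrl and 0.553 and 0.48 CPM in cKO sPre-B cells. *Gm13285* had 0.528 and 0.513 CPM in Ctrl and 1.48 and 1.67 CPM in cKO early LPre-B cells, and 0.0591 and 0.0567 CPM in Ctrl and 0.575 and 0.416 CPM in cKO sPre-B cells. Neither is covered by an opposite-strand exon, and their Log2FC values were close, at 1.52 ± 0.30 and 1.59 ± 0.31 in early LPre-B and 3.30 ± 0.40 and 3.06 ± 0.40 in sPre-B cells. *Gm13287* had 0.289 and 0.564 CPM in Ctrl and 1.12 and 1.55 CPM in cKO early LPre-B cells, and 0.0591 and 0.0284 CPM in Ctrl and 0.444 and 0.272 CPM in cKO sPre-B cells. *Gm13271* had 0.304 and 0.487 CPM in Ctrl and 0.955 and 0.67 CPM in cKO early LPre-B cells, and 0.0355 and 0.0709 CPM in Ctrl and 0.455 and 0.368 CPM in cKO sPre-B cells. *Gm13271* has the most coding windows found in no other gene, and an opposite-strand exon covers its whole length. Its cKO difference in early LPre-B cells was the smallest of the 10, with an SE of 0.42.

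**Figure D2:**
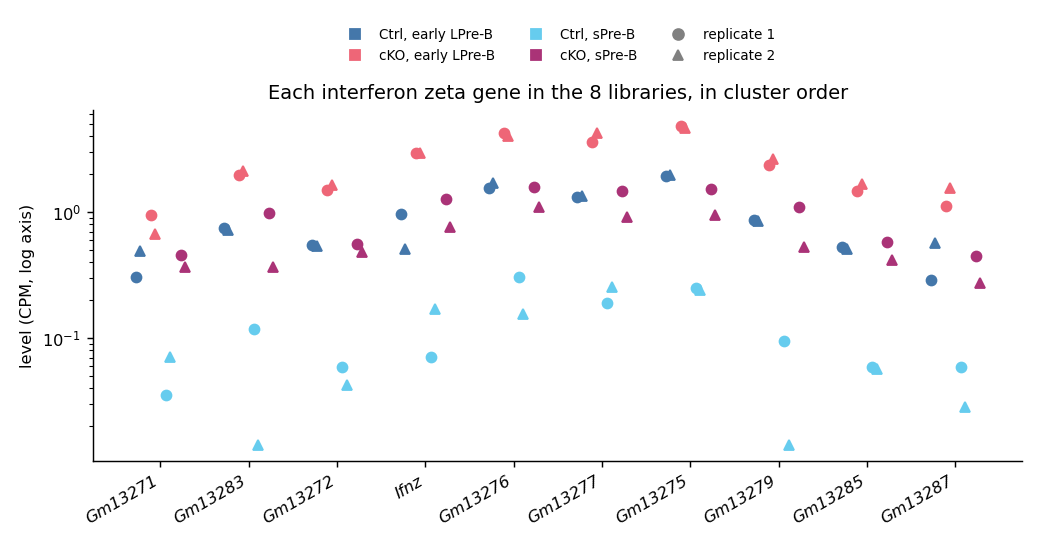
Level of each of the 10 interferon zeta genes in the 8 libraries (vertical axis, CPM, log axis), in the order of the cluster; colours are groups, circles replicate 1 and triangles replicate 2. For each gene the cKO libraries stand above the Ctrl libraries of their stage, and the lowest points are the single counts of *Gm13279* and *Gm13283* in 1 Ctrl sPre-B library (0.0142 CPM).

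The genes outside the list showed the same directions. The median cKO difference of *Gm13278*, *Gm13286*, *Gm13288*, *Gm13289* and *Gm13290* was 1.67 (1.31 to 2.30) in early LPre-B and 2.35 (1.81 to 2.67) in sPre-B cells, against 1.53 and 3.01 for the 10 genes. The stage medians of these 5 genes were −2.23 in Ctrl and −1.90 in cKO cells. The gap between the stages in the cKO effect had a median of 1.38 (0.85 to 2.26) over the 10 genes and of 0.32 (0.05 to 1.36) over the 5 others. The list was drawn up with the levels known, and this gap is given as a description. With all 15 genes summed, the Log2FC was 1.52 ± 0.22 in early LPre-B and 2.59 ± 0.24 in sPre-B cells, and the difference between stages was 1.07 ± 0.31. *Gm13286*, annotated without a coding sequence, had 34 and 14 counts in Ctrl and 117 and 137 counts in cKO early LPre-B cells, the same direction as its neighbours with an open reading frame.

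**Figure D3:**
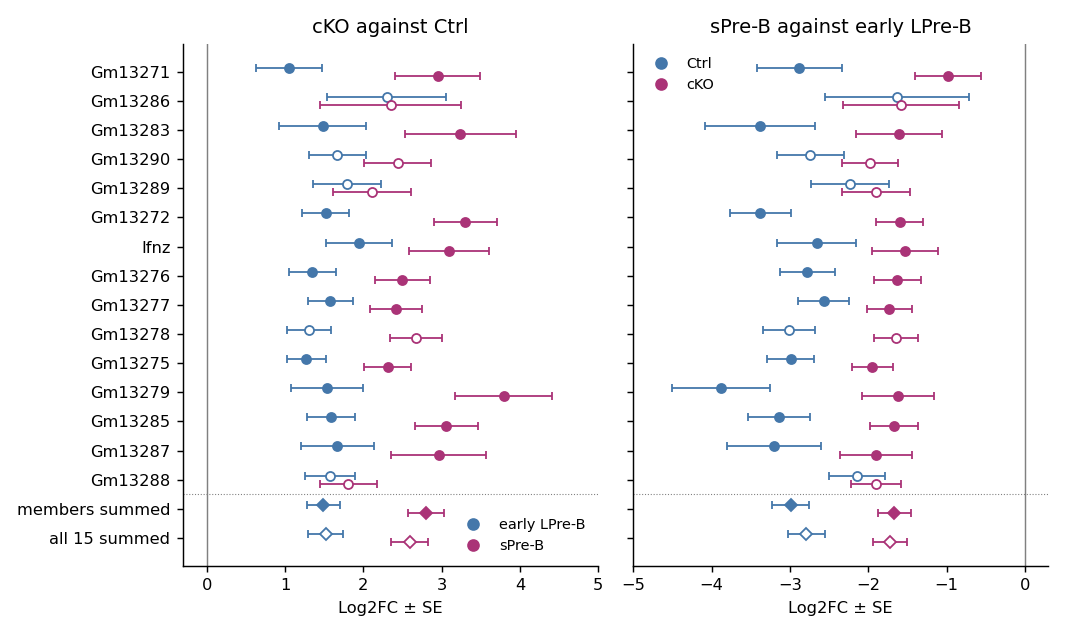
Log2FC ± SE of the 15 limitin-like genes in cluster order and of their sums (horizontal axes), for cKO against Ctrl on the left and sPre-B against early LPre-B on the right; filled symbols are the 10 listed genes and their sum, open symbols the 5 other genes and the sum of all 15. All values on the left are above 0 and all on the right below 0, and the listed genes spread from 2.31 to 3.79 in sPre-B cells.

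Counts rise with the length of a gene model, so levels were compared between genes per kb of RefSeq length. In cKO early LPre-B cells the level per length ran from 1.48 ± 0.368 CPM per kb (SD, n = 2) for *Gm13271* to 3.03 ± 0.0889 CPM per kb for *Gm13275*. None of the 9 neighbouring pairs in that order differed by more than the sum of their SDs, and the same held in cKO sPre-B cells, where the levels ran from 0.637 for *Gm13272* to 0.912 CPM per kb for *Gm13276*. In Ctrl early LPre-B cells the range was 0.507 for *Ifnz* to 1.25 CPM per kb for *Gm13275*, and each step down the first 4 genes, *Gm13275*, *Gm13276*, *Gm13285* and *Gm13277*, exceeded the summed SDs. In Ctrl sPre-B cells it was 0.0562 for *Gm13279* to 0.158 CPM per kb for *Gm13276*, with 1 such step of 9. The highest gene exceeded the lowest by 2.47 times in Ctrl and 2.05 times in cKO early LPre-B cells, and by 2.81 and 1.43 times in sPre-B cells. These ratios were smaller than the 2.8-fold and 6.98-fold differences of the sum between genotypes, except for that of Ctrl sPre-B cells against the 2.8-fold value. *Gm13271*, at the start of the cluster, and *Gm13275*, over 38 kb further on, had cKO differences of the same direction, and no stretch of the cluster went the other way.

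**Figure D4:**
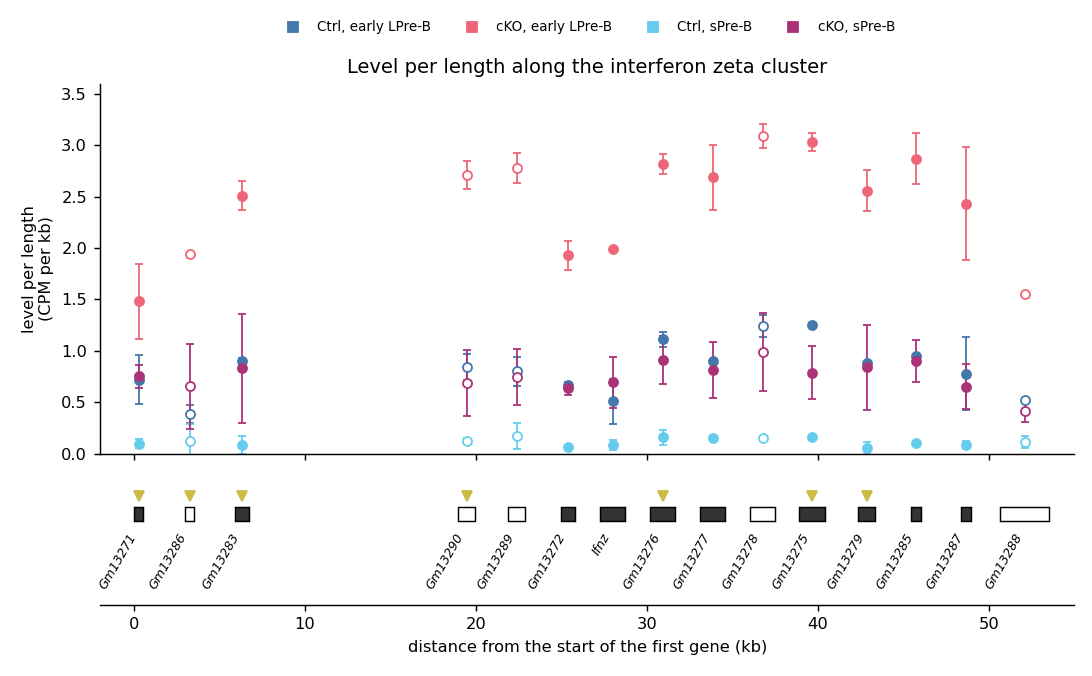
Mean level per length ± SD of the 2 libraries of each group (CPM per kb, upper panel) along the cluster, with the gene models drawn to scale below as distance from the start of the first gene (kb); filled symbols and boxes are the 10 listed genes, open ones the 5 others, and triangles mark genes with an opposite-strand exon. The cKO early LPre-B points are the highest at all 15 genes and the Ctrl sPre-B points the lowest, with and without such an exon.

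Other ligands of the receptor were at or near the detection limit. Of 17 further type I interferon genes in the table, 8 had no count in any library, *Ifnb1* and *Ifne* among them. The 16 genes other than *Ifnk* had 34 counts in all libraries together, and none exceeded 5 counts in a library. The 34 counts came from *Ifna1*, *Ifna2*, *Ifna4*, *Ifna6*, *Ifna13*, *Ifna15*, *Ifna16* and *Ifnab*. *Ifnab* had 5 counts in replicate 1 and 1 in replicate 2 of Ctrl early LPre-B cells, 1 and 1 in cKO early LPre-B cells, none in Ctrl sPre-B cells, and 5 and 0 in cKO sPre-B cells. *Ifnk* (interferon kappa) was the exception, with 18 to 80 counts a library, and its Log2FC for cKO against Ctrl was 0.17 ± 0.35 in early LPre-B and −0.34 ± 0.33 in sPre-B cells (adjusted P = 0.746 and 0.457). It was higher in sPre-B than in early LPre-B cells of both genotypes (1.59 ± 0.35, adjusted P = 0.0038, and 1.08 ± 0.34, adjusted P = 0.0217), the opposite direction to the interferon zeta genes. Of *Ifng*, the type II interferon, 0 to 22 counts were found per library.

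Both receptor genes were expressed in all groups, and their differences between genotypes were small. *Ifnar1* was at 84 and 81.5 CPM in Ctrl and 73.3 and 82.9 CPM in cKO early LPre-B cells, and at 138 and 142 CPM in Ctrl and 167 and 164 CPM in cKO sPre-B cells. Its cKO difference did not pass the test at either stage (−0.08 ± 0.09, adjusted P = 0.499, and 0.24 ± 0.09, adjusted P = 0.0611), while it rose from early LPre-B to sPre-B cells in both genotypes (0.76 ± 0.09, adjusted P = 0.000101, and 1.08 ± 0.09, adjusted P = 1.46e-05). *Ifnar2* was at 42.8 to 58.2 CPM throughout. It fell from early LPre-B to sPre-B cells in Ctrl (−0.30 ± 0.09, adjusted P = 0.0178), a call lost without either Ctrl early LPre-B library (−0.23 and −0.24, adjusted P = 0.0968 and 0.081) or replicate 1 of Ctrl sPre-B cells (−0.17, adjusted P = 0.224), and its value in cKO cells was −0.04 (adjusted P = 0.715). Between genotypes it passed the test in sPre-B cells (0.28 ± 0.09, adjusted P = 0.0405), but under 13 of 14 alternatives it did not (adjusted P up to 0.277), and it was at 0.17 without replicate 1 of Ctrl sPre-B cells. Adjusted P here and below is from edgeR's two-sided quasi-likelihood test and was adjusted by Benjamini-Hochberg across the 17700 genes tested.

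Of 10 genes of the receptor and signalling list, 2 rose and 3 fell in cKO early LPre-B cells, and 3 rose and 3 fell in cKO sPre-B cells, with medians of −0.03 and 0.12 against −0.06 and 0.01 over all genes. Over all genes, 14.5% rose and 16.9% fell in early LPre-B cells, and 19.8% rose and 14.9% fell in sPre-B cells. *Stat2*, the subunit of the interferon-response complex that carries its activation domain, was at 44 and 47.5 CPM in Ctrl and 83.5 and 89.5 CPM in cKO early LPre-B cells. It rose at both stages (0.92 ± 0.09, adjusted P = 0.000161, and 0.60 ± 0.08, adjusted P = 0.00108). *Tyk2*, the kinase bound to IFNAR1, rose by 0.36 ± 0.09 in early LPre-B cells (adjusted P = 0.0215) and by 0.80 ± 0.10 in sPre-B cells (adjusted P = 0.00045). The call in early LPre-B cells was lost without replicate 2 of Ctrl or without either cKO library (0.34 to 0.38, adjusted P = 0.0593 to 0.093). The genes that fell at both stages were *Jak1*, the kinase bound to IFNAR2, with Log2FC of −0.50 and −0.43, and the adaptors *Crk* (−0.43 and −0.48) and *Crkl* (−0.47 and −0.45). *Jak1* lost its call without the replicate 1 cKO library of the stage (−0.46, adjusted P = 0.0578, and −0.39, adjusted P = 0.0878). *Crkl* lost it without replicate 1 of Ctrl or of cKO in early LPre-B (−0.36 and −0.43, adjusted P = 0.0928 and 0.0916) and in sPre-B cells (−0.44 and −0.31, adjusted P = 0.051 and 0.126). *Daxx* had Log2FC values of −0.25 ± 0.11 and −0.02 ± 0.11 (adjusted P = 0.11 and 0.897), and *Irf9* did not pass the test at either stage.

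Among 6 inhibitors of the pathway, 1 rose and 2 fell in cKO early LPre-B cells, beside 14.5% and 16.9% of all genes, and 2 rose and 1 fell in cKO sPre-B cells, beside 19.8% and 14.9%. *Socs1*, which encodes an inhibitor of JAK kinases, was at 8.77 and 8.96 CPM in Ctrl and 3.63 and 4.69 CPM in cKO early LPre-B cells, and at 74.6 and 72.3 CPM in Ctrl and 27 and 26.5 CPM in cKO sPre-B cells. It fell in the cKO cells of both stages (−1.09 ± 0.13, adjusted P = 0.00054, and −1.46 ± 0.13, adjusted P = 0.000103) and rose from early LPre-B to sPre-B cells by 3.05 in Ctrl (adjusted P = 1.17e-06) and 2.68 in cKO cells (adjusted P = 1.87e-06). *Socs3* rose in cKO sPre-B cells (1.57 ± 0.29, adjusted P = 0.00398). *Pias1* fell in cKO early LPre-B cells (−0.42 ± 0.10, adjusted P = 0.015). The call was lost without replicate 2 of Ctrl (−0.26) or without replicate 1 or 2 of cKO (−0.37 and −0.45). *Ptpn11*, a phosphatase, passed the test at both stages with a small difference (0.31 and 0.26, adjusted P = 0.0299 and 0.0499). Its call in sPre-B cells held under none of 14 alternatives, and in early LPre-B cells it was lost under 5 (adjusted P up to 0.156), among them without Ctrl replicate 2 (0.29), without either cKO library (0.36 and 0.26) and without replicate 1 of cKO sPre-B cells (0.31).

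Of 19 genes in the table that take part in the induction of type I interferons, 6 rose and 1 fell in the cKO cells of either stage. The shares of all genes that rose and fell were 14.5% and 16.9% in early LPre-B and 19.8% and 14.9% in sPre-B cells. The medians of the 19 genes were 0.25 and 0.20, against −0.06 and 0.01 over all genes. *Ikbke*, a kinase that activates IRF3 and IRF7, was at 10.1 and 9.89 CPM in Ctrl and 23.8 and 23.1 CPM in cKO early LPre-B cells, and at 0.686 and 0.908 CPM in Ctrl and 4.21 and 3.74 CPM in cKO sPre-B cells. It rose in the cKO cells of both stages (1.23 ± 0.15, adjusted P = 0.000567, and 2.32 ± 0.17, adjusted P = 5.04e-05). It fell from early LPre-B to sPre-B cells in both genotypes (−3.66 in Ctrl, adjusted P = 1.37e-06, and −2.56 in cKO cells, adjusted P = 3.85e-06), and its groups stood in the order cKO early LPre-B, Ctrl early LPre-B, cKO sPre-B, Ctrl sPre-B, with no overlap. *Tlr7*, a sensor of RNA in endosomes, was at 0.861 and 0.782 CPM in Ctrl and 3.88 and 5.14 CPM in cKO early LPre-B cells, and rose at both stages (2.45 ± 0.31, adjusted P = 0.000715, and 2.02 ± 0.30, adjusted P = 0.00142). *Ifih1*, which encodes the sensor MDA5 of RNA duplexes, rose at both stages (1.02 ± 0.29, adjusted P = 0.0274, and 2.05 ± 0.30, adjusted P = 0.00126). Its call in early LPre-B cells was lost without Ctrl replicate 2 (0.84, adjusted P = 0.128) or cKO replicate 2 (0.57, adjusted P = 0.189). *Cgas*, a sensor of DNA, rose in early LPre-B cells (1.28 ± 0.31, adjusted P = 0.0143), a call lost without replicate 1 of Ctrl (1.10, adjusted P = 0.0838) or replicate 2 of cKO (1.14, adjusted P = 0.0768). Of the transcription factors that bind interferon promoters, *Irf3* and *Irf7* did not pass the test at either stage. *Irf8* rose in cKO sPre-B cells (0.42 ± 0.13, adjusted P = 0.0368). The call was lost without any of the 4 libraries of that stage (0.33 to 0.50) or either cKO early LPre-B library (0.42 and 0.42). In early LPre-B cells the value of *Irf8* was 0.38 (adjusted P = 0.0589). There it passed with a replicate block (adjusted P = 0.0493) and in the DESeq2 fit (adjusted P = 0.0247), but not with DESeq2 size factors (adjusted P = 0.0544). *Irf5* fell in cKO early LPre-B cells (−0.48 ± 0.13, adjusted P = 0.0228), a call lost without any of the 4 libraries of that stage (−0.51 to −0.38, adjusted P = 0.0676 to 0.131). *Mavs*, the adaptor of MDA5, fell in cKO sPre-B cells (−0.30 ± 0.09, adjusted P = 0.0402), a call lost under 7 of 14 alternatives (adjusted P up to 0.219), including without replicate 2 of Ctrl (−0.25) or either cKO library of that stage (−0.25 and −0.34) or either cKO early LPre-B library (−0.30 and −0.30).

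Of 24 interferon-stimulated genes, the targets of the pathway, 3 rose and none fell in cKO early LPre-B cells, and 2 rose and none fell in cKO sPre-B cells. Of all genes, 14.5% and 19.8% rose. The 3 and 2 rises became 7 and 11 with no filter on low counts, 7 and 2 with only the libraries compared, and 5 and 3 with DESeq2. The cKO libraries stood above the Ctrl libraries without overlap for 7 of the 24 in early LPre-B and 10 in sPre-B cells, beside 29.9% and 36.5% of all genes. The replicate 2 cKO library was above replicate 1 for 24 of the 24 genes in early LPre-B and 23 in sPre-B cells, where 57.7% and 52.1% of all genes were. The summed level of the 24 genes was 186 and 171 CPM in Ctrl and 165 and 323 CPM in cKO early LPre-B cells, and 242 and 212 CPM in Ctrl and 204 and 458 CPM in cKO sPre-B cells. The replicate 1 cKO libraries thus lay below both Ctrl libraries of their stage, and the replicate 2 cKO libraries above them. The median Log2FC of the list, 0.28 and 0.71, was −0.50 without cKO replicate 2 in early LPre-B cells and −0.01 without it in sPre-B cells, and the rises numbered 0 and 1. Without replicate 1 of cKO it was 0.76 and 1.29, with 6 and 10 rises. The number of rises in early LPre-B cells was 1 without either Ctrl library and 6 without either cKO sPre-B library. In sPre-B cells it was 1 without Ctrl replicate 2 or either Ctrl early LPre-B library and 6 without either cKO early LPre-B library.

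The summed interferon zeta level did not follow this split. It was 24.9 and 26.1 CPM in the cKO early LPre-B libraries, and was higher in replicate 1 than in replicate 2 of cKO sPre-B cells (9.92 and 6.14 CPM). Without cKO replicate 2 the Log2FC of the sum was 1.45 ± 0.26 in early LPre-B and 3.11 ± 0.16 in sPre-B cells. *Bst2* (tetherin) rose at both stages (0.84 ± 0.18, adjusted P = 0.00925, and 1.75 ± 0.19, adjusted P = 0.000265), and in early LPre-B cells lost its call without cKO replicate 2 (0.57, adjusted P = 0.0622). *Mx2*, an antiviral GTPase, was at 1.57 and 1.87 CPM in Ctrl and 5.36 and 20.5 CPM in cKO early LPre-B cells, and at 8.01 and 6.72 CPM in Ctrl and 9.97 and 37.7 CPM in cKO sPre-B cells. It passed the test in early LPre-B cells (2.92 ± 0.72, adjusted P = 0.0155), but not without cKO replicate 2 (1.65, adjusted P = 0.0949) nor without replicate 1 or 2 of Ctrl (2.82 and 3.08, adjusted P = 0.102 and 0.0781), and its value in sPre-B cells was 1.69 (adjusted P = 0.0826). *Eif2ak2* (PKR) rose in early LPre-B cells (0.93 ± 0.26, adjusted P = 0.0271), a call lost without either Ctrl library (0.91 and 1.03, adjusted P = 0.115 and 0.0845) or cKO replicate 2 (0.55, adjusted P = 0.171). *Ddx60* rose in sPre-B cells (1.41 ± 0.43, adjusted P = 0.033), a call lost without either Ctrl library of that stage (1.33 and 1.42, adjusted P = 0.125 and 0.11), cKO replicate 2 (0.69, adjusted P = 0.236) or either Ctrl early LPre-B library (1.37 and 1.37, adjusted P = 0.0574 and 0.0578).

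**Figure D5:**
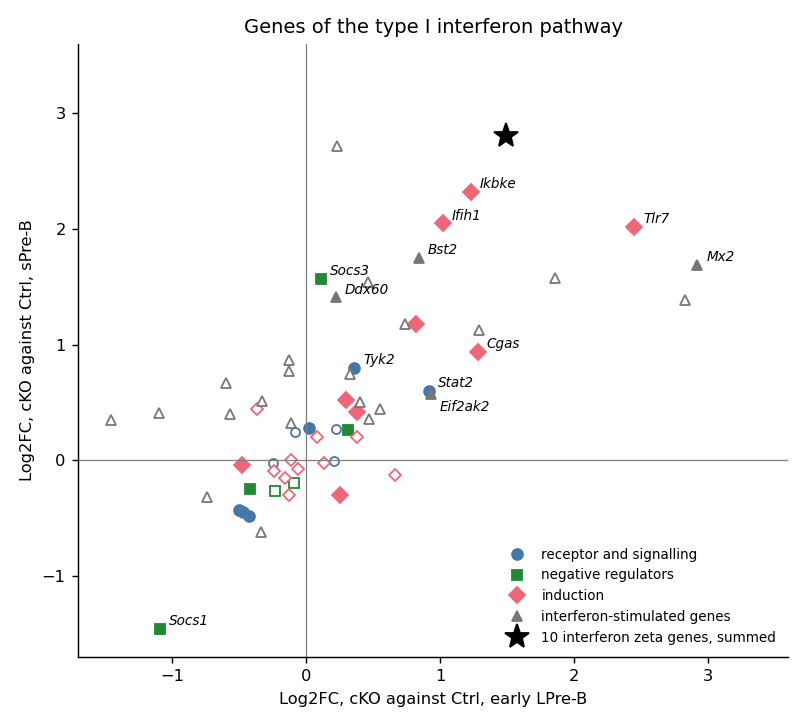
Log2FC of cKO against Ctrl in early LPre-B (horizontal axis) and sPre-B cells (vertical axis) for 59 genes of the type I interferon pathway, marked by role, with the sum of the 10 interferon zeta genes as a star at 1.49 and 2.80. Filled symbols passed the test at an adjusted P under 0.05 at 1 stage or both, and *Ikbke*, *Tlr7* and *Bst2* are among the genes that rose at both.

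Over the 59 pathway genes together, 12 rose and 6 fell in cKO early LPre-B cells and 13 rose and 5 fell in cKO sPre-B cells, beside 14.5% and 16.9%, and 19.8% and 14.9%, of all genes. The first count was 5 without Ctrl replicate 2 and 3 without cKO replicate 2, the 6 falls became 2 without cKO replicate 1, and the 5 falls in sPre-B cells became 3 without cKO replicate 1. With both replicate 2 Ctrl libraries left out, which were set apart by *Xist* and Y-linked counts, the numbers were 6 and 4 in early LPre-B and 10 and 4 in sPre-B cells. Between the stages, from early LPre-B to sPre-B, 27 pathway genes rose and 7 fell in Ctrl and 27 rose and 4 fell in cKO cells (17 rises without replicate 2 of cKO sPre-B cells), where 29.1% and 31.6% of all genes rose and 31.1% and 31.1% fell. With those Ctrl libraries left out the Ctrl numbers were 17 and 4. *Tlr9* rose (2.88 in Ctrl, adjusted P = 1.45e-06, and 2.72 in cKO cells, adjusted P = 2.03e-06). *Ifit2* fell in both genotypes (−2.78 ± 0.44 in Ctrl, adjusted P = 0.000638, and −1.77 ± 0.42 in cKO cells, adjusted P = 0.00557), as did *Cgas* (−1.89 ± 0.33, adjusted P = 0.00121, and −2.22 ± 0.32, adjusted P = 0.000349).

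Genes next to the interferon cluster did not share one direction between genotypes. Of 7 neighbours tested, 1 rose and 4 fell in cKO early LPre-B cells, beside 14.5% and 16.9% of all genes, and 1 rose and 3 fell in cKO sPre-B cells, beside 19.8% and 14.9%. From early LPre-B to sPre-B none rose, and 5 fell in Ctrl and 4 in cKO cells, beside the 31.1% and 31.1% of all genes that fell. These falls, in the direction of the interferon zeta genes, were those of *Mllt3* (−0.84 and −1.27), *Mtap* (−1.73 and −2.46) and *Focad* in both genotypes, of *Cdkn2a* (−1.95) and *Cdkn2b* (−1.61) in Ctrl cells and of *Klhl9* (−0.25) in cKO cells. The call was lost for *Cdkn2a* without Ctrl early LPre-B replicate 1 or Ctrl sPre-B replicate 2 (−1.67 and −1.55, adjusted P = 0.0536 and 0.0622) and for *Cdkn2b* without Ctrl sPre-B replicate 1 (−1.20, adjusted P = 0.0686). It was lost for *Klhl9* without either cKO early LPre-B library or cKO sPre-B replicate 1 (−0.28 to −0.18, adjusted P = 0.0867 to 0.245). *Focad* rose at both stages (0.83 ± 0.18, adjusted P = 0.00981, and 0.62 ± 0.19, adjusted P = 0.035) and was, like the interferon zeta genes, lower in sPre-B than in early LPre-B cells (−2.28 in Ctrl and −2.50 in cKO cells). Its first call was lost without cKO replicate 2 (0.75, adjusted P = 0.0589). Its second was lost under 7 of 14 alternatives (adjusted P up to 0.193), including without replicate 2 of Ctrl (0.33), either cKO library of that stage (0.61 and 0.62) or either cKO early LPre-B library (0.62 and 0.62). *Mllt3* fell at both stages (−0.53 and −0.96, adjusted P = 0.00629 and 0.000336), as did *Klhl9* (−0.30 and −0.66, adjusted P = 0.0392 and 0.00105). *Klhl9* passed under 4 of 14 alternatives in early LPre-B cells and not without any of the 4 libraries of that stage (−0.32 to −0.23). *Mllt3* lost its call in early LPre-B cells without cKO replicate 1 (−0.50). *Mtap* fell in sPre-B cells (−0.78 ± 0.15, adjusted P = 0.00466). *Cdkn2a* and *Cdkn2b*, the INK4 inhibitors of the cell cycle, fell in cKO early LPre-B cells (−2.28 and −1.23, adjusted P = 0.00732 and 0.0376) from levels of 0.614 and 0.822 CPM. The call of *Cdkn2a* was lost without Ctrl replicate 1 or cKO replicate 2 (−2.01 and −2.15). That of *Cdkn2b* held under 6 of 14 alternatives and not without any of the 4 libraries of that stage (−1.35 to −1.07). In cKO against Ctrl, no neighbour with a call except *Focad* had the direction of the interferon zeta genes.

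Plasmacytoid dendritic cells are the chief makers of type I interferons in blood, and their markers were among those of other cell types looked for. All 7 of their markers had counts in every group. Their summed level was 5.89 to 7.96 CPM in Ctrl and 14.4 to 14.5 CPM in cKO early LPre-B cells, and 21.9 to 26.6 CPM in Ctrl and 37.6 to 39.9 CPM in cKO sPre-B cells. This sum, most of which was *Cox6a2* and *Ccr9*, was higher in cKO cells and higher in sPre-B cells, where the interferon zeta genes were lower. The markers did not move together between genotypes, and the median Log2FC of the 7 was −0.46 in early LPre-B and 0.11 in sPre-B cells. In cKO early LPre-B cells *Cox6a2* (1.91 ± 0.20, adjusted P = 0.00033) and *Pacsin1* (1.25 ± 0.35, adjusted P = 0.026) rose and *Clec10a* fell (−2.92 ± 0.74, adjusted P = 0.0174), while *Siglech*, *Klk1* and *Lair1* had values of −1.39, −0.73 and −0.46 that did not pass (adjusted P = 0.135, 0.502 and 0.388). In cKO sPre-B cells *Ccr9* rose from a mean of 3.92 to 11.1 CPM (adjusted P = 0.000699), and none of the 7 fell. *Siglech*, the defining surface receptor of these cells, had 20 and 18 counts in Ctrl and 3 and 14 counts in cKO early LPre-B cells, and 42 and 66 counts in Ctrl and 68 and 101 counts in cKO sPre-B cells. The part of these cells in the interferon zeta level was not tested. The summed level of 10 myeloid markers, most of it *Itgam*, was 111 to 136 CPM in Ctrl and 51.2 to 56.2 CPM in cKO early LPre-B cells, and 306 to 358 CPM in Ctrl and 213 to 246 CPM in cKO sPre-B cells. Of the 10, *Itgam* and *Lyz2* fell in early LPre-B cells and *Itgam* alone passed the test in sPre-B cells, beside the 16.9% and 14.9% of all genes that fell. T and NK cell markers summed to 4.63 to 5.4 CPM in Ctrl and 2.05 to 2.6 CPM in cKO early LPre-B cells, where *Klrb1c* fell (−2.29 ± 0.37, adjusted P = 0.00229), and to 1.96 to 2.39 CPM in sPre-B cells. Erythroid and megakaryocyte markers summed to 18.4 to 19.4 CPM in Ctrl and 5.38 to 20.5 CPM in cKO early LPre-B cells, and to 34.4 to 44.1 CPM in Ctrl and 18.4 to 36.3 CPM in cKO sPre-B cells. Among them *Hbb-bs* fell in the cKO cells of both stages (−1.61 ± 0.34, adjusted P = 0.00785, and −1.51 ± 0.33, adjusted P = 0.00838). With both replicate 2 Ctrl libraries left out these calls were lost, at values of −1.49 and −1.31. Stromal markers summed to 0.947 to 11 CPM over all groups, with overlapping ranges.

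The genes whose levels followed the summed interferon zeta level most closely over the 8 libraries were not among the 59 pathway genes. These 59 are a small part of the genes compared, so this says little about the pathway. Likeness was the root mean square difference of log2(CPM + 0.1) centred on each gene's mean, over 17684 genes outside the interferon cluster. Among the smallest differences were those of *Ccdc57* (0.216), *Acacb* (0.245), *Slc7a5* (0.253) and *Tbc1d32* (0.265), where the median gene had 1.63. *Ccdc57* had 1292 and 841 counts in Ctrl and 4051 and 5061 counts in cKO early LPre-B cells, and 145 and 108 counts in Ctrl and 1166 and 1342 counts in cKO sPre-B cells. *Acacb* encodes an acetyl-CoA carboxylase and *Slc7a5* a transporter of large neutral amino acids. Like the summed interferon zeta level, both were highest in cKO early LPre-B and lowest in Ctrl sPre-B cells. Among the cluster's own genes the difference from the sum was 0.18 for *Gm13279*, 0.213 for *Gm13278*, 0.281 for *Gm13276* and 0.29 for *Gm13275*, which are parts of the sum or close copies of them. It was 0.466 for *Ifnz*, 0.698 for *Gm13271* and 0.74 for *Gm13286*. These genes were picked for their likeness, and their levels are a description.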

How the data were processed

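The authors deposited raw gene counts, made with Trim Galore, HISAT2 (genome mm10, reads treated as unstranded) and featureCounts per the submitters' processing notes and the study's methods. Tool versions, the annotation and the setting for reads matching several genes are not given in the sources used here. The fit used edgeR 4.0.16 under R 4.3.3, with TMM factors of 0.862 to 1.09, a filter on low counts by group (17700 genes left), 1 mean per group over 8 libraries, the two-sided quasi-likelihood test and Benjamini-Hochberg adjustment (threshold 0.05; common biological coefficient of variation 0.174). Summed counts entered as added features after scaling. SEs are Log2FC over the root of F.

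Members, lists and tests were chosen with earlier results of these data known. Named were all limitin-like genes, type I interferons with counts, both receptor genes, per pathway list up to 3 rises and 3 falls with libraries that did not overlap and 50 or more counts (2 each between stages), neighbours past the threshold, and the 5 genes most alike, of which 1 is not reported here. *Irf9*, *Irf8*, *Irf3*, *Irf7*, *Daxx*, *Ifnb1*, *Ifne*, *Ifng*, *Siglech*, the other plasmacytoid dendritic cell markers, *Itgam*, *Lyz2*, *Klrb1c* and *Hbb-bs* were added after values were seen. On simulated data 51% of genes changed by a Log2FC of 1 and 85% of those changed by 2 were recovered in early LPre-B cells. Alternatives were DESeq2 1.42.0, its size factors, library totals, no filter, a replicate block, only the libraries compared, other sums and each library left out.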

Additional observations from a re-analysis of the deposited data

Results flagged for a closer look

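The cKO difference of *Ikbke* was not the same at the 2 stages by the test of the interaction. The Log2FC was 1.10 ± 0.22 larger in sPre-B than in early LPre-B cells (edgeR quasi-likelihood test, adjusted P = 0.0333), and *Ikbke* was the only gene past the threshold among the 65 looked at, which were 59 pathway genes and the 6 neighbouring genes named in the text, where 4.24% of all genes tested passed. It passed under 5 of 13 alternatives, with adjusted P from 0.00174 to 0.123.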

How the results depend on the processing

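The summed interferon zeta count kept its direction under all alternatives run in each comparison. Of 84 values of the sum, 75 moved by less than the spread between replicates. In early LPre-B cells the Log2FC of 1.49 became 1.65 with library totals, 1.55 with only the libraries compared, 1.54 without *Gm13275*, and 1.45 to 1.55 with 1 library left out. In sPre-B cells it ranged from 2.42 to 3.11 with 1 library left out. The stage difference in Ctrl cells, −2.99, became −2.79 with library totals, −2.79 with all 15 genes summed and −3.05 to −2.81 with 1 library left out. In cKO cells it was −2.06 to −1.36, and the difference between stages 0.93 to 1.62. With both Ctrl libraries of replicate 2 left out, chosen after seeing the data, the values were 1.55 in early LPre-B cells and −2.79 for the Ctrl stage difference. A lone library was taken to vary like the other groups.

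Of 112 numbers of pathway genes called, 102 were within 1.5 times the reported ones. The 12 rises in early LPre-B cells became 19 with only the libraries compared, 6 with both those Ctrl libraries left out and 3 to 14 with 1 library left out, and the 6 falls 2 to 6. The 13 rises in sPre-B cells became 21 with no filter and 9 to 19 with 1 library left out, and the 5 falls 3 to 6. The Ctrl stage numbers 27 and 7 became 17 and 4 with both Ctrl libraries left out, and the 27 rises in cKO cells 17 to 33 with 1 library left out. Fewer libraries also leave fewer degrees of freedom, and the cause was not tested.

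The labels give replicate numbers and no animal, so whether same-numbered libraries came from the same mice is not known. Deviations correlated at 0.137, 0.0582, 0.453 and 0.316 between same-numbered libraries of the groups compared. With a replicate block the sum was 1.49, 2.79, −3.00 and −1.69, the difference between stages 1.30, and the pathway calls rose and fell in 14 and 6, 14 and 5, 28 and 8, and 29 and 5 genes. In Ctrl sPre-B cells, counts of 1 to 26 per gene limit the values of single genes.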
